A study of Mus musculus with 4 samples.

Results

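Oxidative phosphorylation is the route by which mitochondria turn the energy of food into ATP: complexes I to IV pass electrons along the inner membrane to oxygen while pumping protons, and complex V, the ATP synthase, lets the protons flow back to make ATP. Complex II feeds electrons from succinate into the chain, and cytochrome c is the small soluble carrier between complexes III and IV. In the testis, germ cells replace several somatic subunits with forms made from separate genes: Cyct in place of Cycs, and Cox6b2, Cox7b2 and Cox8c beside Cox6b1, Cox7b and Cox8a.

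The nuclear genes of this system were examined in mouse testis RNA. Members were the gene symbols beginning with Ndufa, Ndufb, Ndufc, Ndufs, Ndufv, Uqcr, Cox4 to Cox8 or Atp5, the 4 succinate dehydrogenase genes Sdha to Sdhd, and Cyct and Cycs, leaving out the Ndufaf assembly factors. They came to 89 of 17924 gene symbols, 40 in complex I, 4 in complex II, 8 in complex III, 18 in complex IV, 17 in complex V and 2 cytochromes c. Ndufa4 and Ndufa4l2 were placed with complex IV, where the NDUFA4 protein is found. All 89 passed the filter on low values and were tested. The 13 mitochondrially encoded subunits had no values in the tables and were not analysed here.

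The study compared testes of C57BL/6 male mice that were either wild type (WT, 2 samples) or lacked Tas1r3, the gene of a sweet and umami taste receptor subunit (Tas1r3 KO, 2 samples). All had received a normal diet, labelled 18 weeks. Neither the age, the deleted part of the gene, nor whether the samples came from separate animals is given in the labels, so each p-value measures the spread between these samples, which may be technical. Values are CPM, reads scaled to 1000000 per library, summed over the transcripts of a gene.

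In CPM, Tas1r3 had 13.8 in WT sample 1, 20.5 in WT sample 2, 1.34 in KO sample 1 and 0 in KO sample 2. Both KO values were under what 3 reads were worth (4.01 and 5.02 CPM). The log2 fold change of Tas1r3 was -3.54, yet its Benjamini-Hochberg adjusted p by limma was 0.942. The fit thus did not call the knocked-out gene itself, so a lack of calls below does not show that levels were equal. Estimated depth was 1719356 and 1807694 reads in WT and 748637 and 597936 in KO, 2.62-fold deeper in WT. The tissue label matched its markers: 7 elongating spermatid genes summed to 25230 to 35950 CPM, while 3 skeletal muscle genes summed to 4.38 to 11.5 CPM and the 1 epididymis gene listed was at 0 to 5.42 CPM. In whole tissue, fewer cells of a type and less RNA per cell cannot be told apart.

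The promoters of 2 isoform pairs are shown first, those of the germ cell and somatic forms of cytochrome c and of the complex IV pair whose somatic form is X-linked. Each line holds the 250 bases before the start of the gene, 5′ to 3′ on the gene's strand, from the RefSeq promoter table of build GRCm38.p6. Capitals mark 3 motifs searched on both strands: the cyclic AMP response element TGACGTCA, the core of the site of NRF1, a regulator of respiratory genes (GCATGCGC, or GCGCATGC on the other strand), and the CCAAT box (CCAAT, or ATTGG). Cyct lies at chr2:76360454-76360703 (minus strand), Cycs at chr6:50566570-50566819 (minus strand), Cox7b2 at chr5:71548206-71548455 (minus strand) and Cox7b at chrX:106015450-106015699 (plus strand).
Cyct: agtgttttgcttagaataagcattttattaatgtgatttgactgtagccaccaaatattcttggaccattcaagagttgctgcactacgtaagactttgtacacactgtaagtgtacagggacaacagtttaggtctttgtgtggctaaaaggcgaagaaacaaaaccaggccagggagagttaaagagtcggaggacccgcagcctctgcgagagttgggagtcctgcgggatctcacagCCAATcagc
Cycs: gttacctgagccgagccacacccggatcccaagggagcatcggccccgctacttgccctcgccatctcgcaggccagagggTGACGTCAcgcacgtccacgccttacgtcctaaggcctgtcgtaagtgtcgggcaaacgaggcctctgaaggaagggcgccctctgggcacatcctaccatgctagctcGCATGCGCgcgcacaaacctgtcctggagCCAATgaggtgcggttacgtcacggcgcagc
Cox7b2: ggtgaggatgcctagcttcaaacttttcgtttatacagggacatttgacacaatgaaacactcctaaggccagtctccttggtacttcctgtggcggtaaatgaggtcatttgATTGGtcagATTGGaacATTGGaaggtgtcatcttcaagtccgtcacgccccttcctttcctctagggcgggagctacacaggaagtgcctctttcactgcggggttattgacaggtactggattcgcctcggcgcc
Cox7b: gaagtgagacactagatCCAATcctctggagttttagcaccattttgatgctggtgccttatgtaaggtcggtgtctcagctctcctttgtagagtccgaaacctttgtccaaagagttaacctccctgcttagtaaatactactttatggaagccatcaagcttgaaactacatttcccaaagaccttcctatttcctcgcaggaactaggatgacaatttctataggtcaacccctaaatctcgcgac

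The Cycs window held 1 cyclic AMP response element, 1 NRF1 core and 1 CCAAT box, whereas the Cyct window held 1 CCAAT box and neither of the other motifs. The Cox7b2 window held 3 CCAAT boxes, all on the other strand, and the Cox7b window held 1. GC content was 64.0% for Cycs, 45.6% for Cyct, 50.4% for Cox7b2 and 43.6% for Cox7b. Over 78 promoters of 73 members, 6.41% held the cyclic AMP response element, 11.5% the NRF1 core and 42.3% a CCAAT box. Over all 32851 promoters in the table, the shares were 1.55%, 2.26% and 33.8%. The motifs share no bases with each other in the 4 windows, and a match in the letters describes the sequence only.

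Levels between genes were compared as CPM per kilobase of the expressed transcripts. The 2 most abundant of all 89 members were testis isoforms of complex IV: Cox6b2, which replaces the peripheral subunit COX6B1, averaged 471 CPM per kilobase, and Cox8c, which replaces the small membrane subunit COX8A, averaged 468. Next came Cox4i1, the common form of the regulatory subunit 4, at 344, Atp5b, the catalytic beta subunit of ATP synthase, at 303, and Cox6a1 at 294. The highest member of complex I was Ndufa7, an accessory subunit, at 263, and the highest of complex III was Uqcrc1, a core protein, at 191. The order of Cox6b2 and Cox8c was not settled by the samples, since Cox8c spanned 424 to 530 CPM per kilobase and Cox6b2 461 to 483.

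At the low end stood isoforms known from other tissues. Cox7a1, the heart and skeletal muscle form of subunit 7a, was at 1.78 and 1.66 CPM in WT and listed at 0 in both KO samples, about 3 reads in each WT library, so no fold is given. Cox4i2, the lung form of subunit 4, was at 2.33, 1.66, 0 and 5.02 CPM in WT 1, WT 2, KO 1 and KO 2. The somatic Cox7b and Cycs averaged 8.35 and 9.98 CPM per kilobase. The complex medians per kilobase were 63.5 CPM for complex I, 38.3 for II, 98.0 for III, 79.5 for IV and 102 for V.

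**Figure D1:**
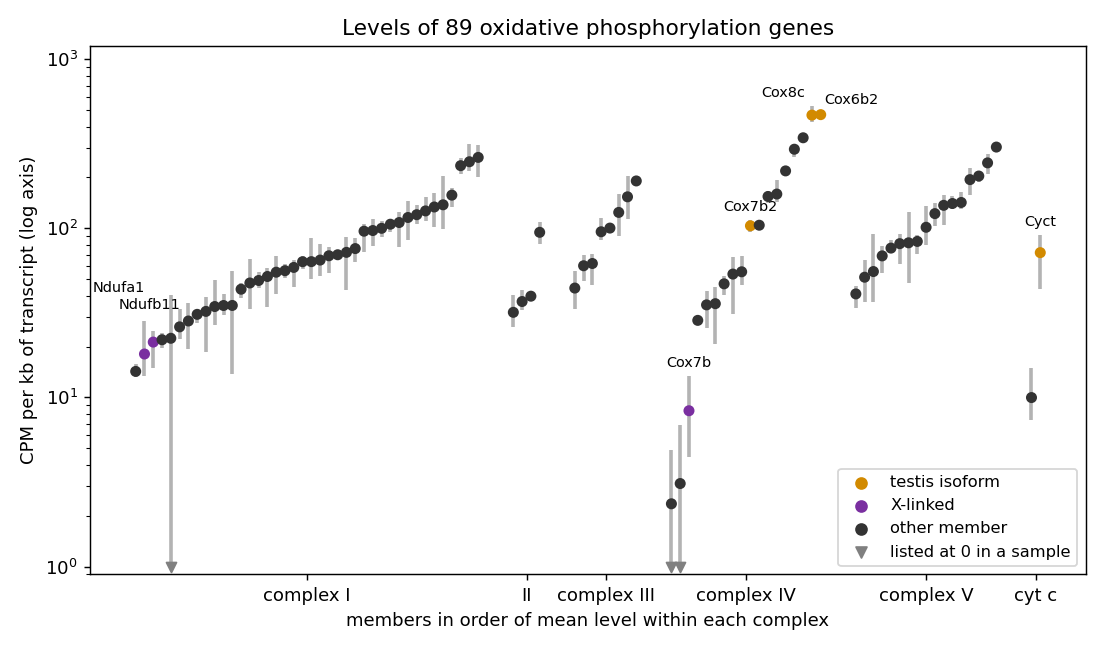
Mean level of each of the 89 members over the 4 samples, in CPM per kilobase of transcript on a log axis, ordered within each complex; grey bars run from the lowest to the highest sample and triangles mark members listed at 0 in a sample. Cox6b2 (471) and Cox8c (468) head the plot, while Cox7b (8.35) and Cycs (9.98), the somatic partners of 2 testis isoforms, lie near the bottom.

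The 3 X-linked members were all low. Cox7b, Ndufa1 and Ndufb11 averaged 8.35, 18.1 and 21.3 CPM per kilobase, a median of 18.1 against 74.0 for the 86 autosomal members. Over all genes the median was 2.53 for 714 X-linked and 5.23 for 17189 autosomal genes. The autosomal partner of Cox7b, Cox7b2, averaged 104 CPM per kilobase. A like pair stood outside the members in pyruvate dehydrogenase, which supplies the citric acid cycle: Pdha2, the testis form, was at 73.8, 81.4, 78.9 and 78.9 CPM per kilobase in WT 1, WT 2, KO 1 and KO 2, and the X-linked Pdha1 at 1.73, 1.79, 0.952 and 2.24. Another pair outside the members went the other way: the germ cell ADP/ATP carrier gene Slc25a31 lay below Slc25a5, of the same family, in every library. In the same order Slc25a31 was at 22.3, 12.1, 19.9 and 18.2 CPM per kilobase, and Slc25a5 at 25.55, 25.63, 25.79 and 29.7.

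Per kilobase, the 4 testis isoforms among the members exceeded their somatic partners in every library. Cox6b2 (chr7:4754791-4756094, minus strand, build mm39) was at 239 and 226 in WT against 228 and 236 CPM in KO, with the genotypes overlapping. Its log2 fold change was -0.00 (SE 0.13, 95% interval -0.30 to 0.30; Benjamini-Hochberg adjusted p = 0.999 by limma). Cox6b1 (chr7:30316396-30325540, minus strand) was at 16.9 and 12.2 in WT against 17.4 and 20.1 CPM in KO, about 12 to 29 reads per library. Both KO values of Cox6b1 lay above both WT values, and its log2 fold change was 0.36 (SE 0.32, 95% interval -0.38 to 1.10; adjusted p = 0.942, limma). In per-kilobase levels the testis form exceeded the somatic form 13.5- and 18.0-fold in WT and 12.5- and 11.1-fold in KO.

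Cox8c (chr12:102865565-102866794, plus strand) was at 252 and 202 in WT against 214 and 222 CPM in KO, so the KO values lay between those of WT. Cox8a (chr19:7192523-7194982, minus strand) was at 23.8 and 22.1 in WT against 28.1 and 28.4 CPM in KO, with both KO values above WT. It had 41, 40, 21 and 17 estimated reads in WT 1, WT 2, KO 1 and KO 2. Log2 fold changes were -0.05 (SE 0.15, 95% interval -0.40 to 0.30; adjusted p = 0.979, limma) for Cox8c and 0.29 (SE 0.25, 95% interval -0.28 to 0.85; adjusted p = 0.942) for Cox8a. The ratio of the testis to the somatic form was 12.1 and 10.4 in WT and 8.72 and 8.96 in KO.

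Cox7b2 (chr5:71600166-71705549, minus strand), the testis form of subunit 7b, was at 57.6 and 60.9 in WT against 54.8 and 51.8 CPM in KO. Both KO values lay below WT, with a log2 fold change of -0.15 (SE 0.18, 95% interval -0.57 to 0.27; adjusted p = 0.947, limma). Cox7b (chrX:105059306-105066057, plus strand) was at 7.56 and 4.46 in WT against 8.01 and 13.4 CPM in KO, from only 13, 8, 6 and 8 estimated reads. Both KO values lay above WT, with a log2 fold change of 0.74 (SE 0.47, 95% interval -0.35 to 1.82; adjusted p = 0.942, limma). The ratio was 14.0 and 25.2 in WT and 12.6 and 7.14 in KO.

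Cyct (chr2:76184286-76190798, minus strand) encodes the cytochrome c of germ cells, made from the spermatocyte stage on. It was at 49.4 and 28.8 in WT against 50.7 and 60.2 CPM in KO, where WT sample 1 and KO sample 1 were nearly level. Its log2 fold change was 0.54 (SE 0.28, 95% interval -0.11 to 1.18; adjusted p = 0.942, limma), and it moved to 0.158 without WT sample 2 and to 0.919 without WT sample 1. Cycs (chr6:50539543-50543550, minus strand), the somatic form, was at 27.4 and 28.4 in WT against 23.3 and 46.8 CPM in KO, with KO on both sides of WT. Per kilobase, Cyct exceeded Cycs 8.65-, 4.85-, 10.4- and 6.16-fold in WT 1, WT 2, KO 1 and KO 2. This ratio depends on the long Cycs transcript: Cyct took 64.4%, 50.5%, 69.1% and 56.2% of the pair's estimated reads (exact 95% intervals 55.6 to 72.5, 40.5 to 60.5, 55.2 to 80.9 and 43.3 to 68.6).

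**Figure D2:**
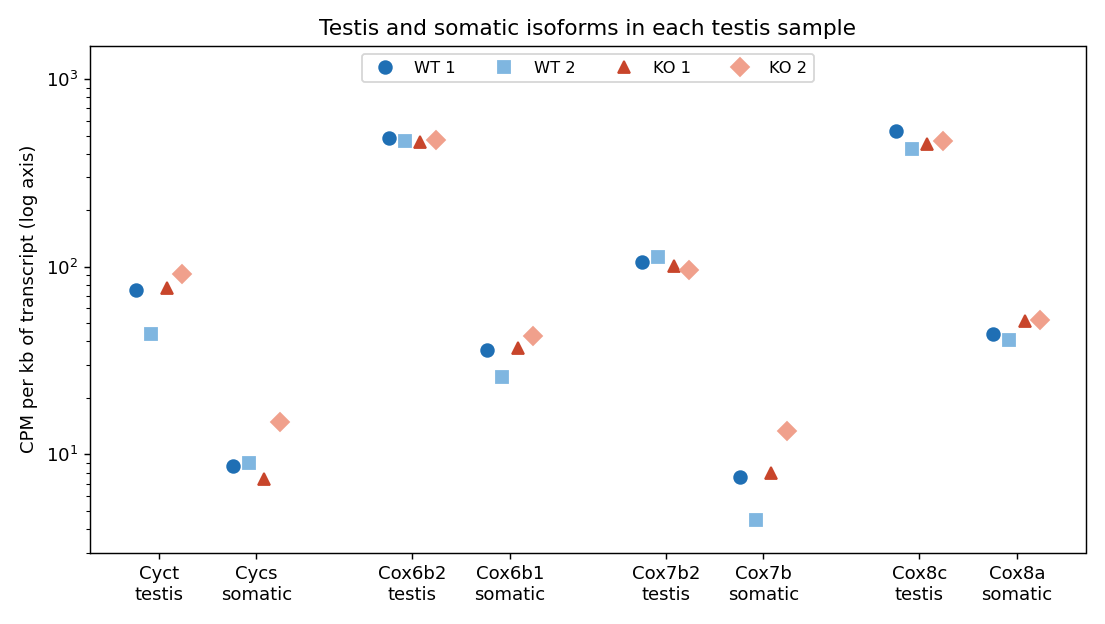
Level of each testis isoform and its somatic partner in each of the 4 samples, in CPM per kilobase of transcript on a log axis. Each testis isoform lies above its partner in every sample, and both KO samples lie above both WT samples for Cyct, Cox6b1, Cox7b and Cox8a, and below them for Cox7b2.

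Summed over the 4 pairs, testis isoforms made up 92.6% and 92.9% of the per-kilobase level in WT and 91.3% and 90.2% in KO. The sum of testis over somatic forms was 12.5 and 13.1 in WT and 10.5 and 9.17 in KO, so both KO samples lay below WT. The log2 ratio was 3.66 ± 0.047 in WT and 3.28 ± 0.14 in KO (SD, n = 2 each), a difference of -0.38. Differences were -0.39 for Cox6b2/Cox6b1, -0.89 for Cox7b2/Cox7b and -0.34 for Cox8c/Cox8a, without overlap, and 0.32 for Cyct/Cycs, with overlap. Leaving out each sample in turn, they ran from -0.595 (without WT 1) to -0.193 (without WT 2) for Cox6b2/Cox6b1, from -1.26 (without KO 1) to -0.51 (without KO 2) for Cox7b2/Cox7b and from -0.45 to -0.234 for Cox8c/Cox8a. Cyct/Cycs ran from 0.723 without WT 1 to -0.0929 without WT 2, and was -0.0219 without KO 1, so its direction turned. In the exact two-sided permutation test p was 0.33 for each of the 4 ratios without overlap, the smallest that 2 against 2 samples allow, and 0.667 for Cyct/Cycs. Over these 5 ratios the Benjamini-Hochberg adjusted values of the exact test were 0.417 and 0.667.

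The counting intervals of the pooled testis share of reads overlapped between all 4 libraries. The shares were 88.8% (86.8 to 90.5) and 88.6% (86.5 to 90.4) in WT and 87.8% (84.5 to 90.6) in KO 1. In KO 2 the share was the lowest, at 84.0% (80.1 to 87.4). That interval overlaps those of both WT libraries and of KO 1. For each of the 3 pairs whose ratios did not overlap, the counting intervals did overlap between all 4 libraries. In WT 1, WT 2, KO 1 and KO 2 they were 90.7 to 95.5%, 92.4 to 96.8%, 88.2 to 96.2% and 86.7 to 95.9% for Cox6b2/Cox6b1. They were 81.0 to 93.7%, 87.1 to 97.0%, 74.3 to 95.2% and 63.5 to 90.7% for Cox7b2/Cox7b. For Cox8c/Cox8a they were 88.5 to 93.7%, 86.8 to 92.8%, 82.8 to 92.7% and 82.5 to 93.3%. Overlap of intervals does not show that the shares are equal. Cell type markers were summed in the same samples, and 0 of them passed the adjusted test. Summed spermatogonial markers were at 104.9 and 101.7 in WT against 137.3 and 142.5 CPM in KO, with 5 of 6 genes above 0 in log2 fold change. Summed spermatocyte markers were at 1843 and 1780 in WT against 2009 and 1960 CPM in KO, with 8 of 8 genes above 0, and peritubular markers were at 92.5, 101.9, 76.3 and 75.3 CPM, with 4 of 4 below 0. Summed round spermatid markers (2201, 2053, 2071 and 2483 CPM in WT 1, WT 2, KO 1 and KO 2) overlapped, with 6 of 7 genes above 0. Elongating spermatid markers (29250, 29230, 25230 and 35950 CPM) overlapped too, with 3 of 7 above 0. Sertoli markers (1247, 1272, 1348 and 1094 CPM) overlapped, while the sum of Leydig markers (1694, 1823, 1550 and 1596 CPM) was lower in both KO samples with 3 of 6 genes above 0 and 3 below, and a median log2 fold change of 0.27. The part of cell makeup in the isoform ratios was not tested.

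Over the whole system, the summed CPM of the members overlapped between the genotypes, which does not show that levels were equal. The members summed to 7238 and 6862 in WT against 6637 and 7380 CPM in KO, with the KO values on both sides of WT. That is 7050 ± 266 and 7009 ± 525 CPM (SD, n = 2 each). By limma with Benjamini-Hochberg adjustment over 17744 genes, 0 of 89 members passed 0.05 in either direction, where 1 gene of all those tested, or 0.00564%, did. At an unadjusted p under 0.05, 1 member was higher and 0 were lower in KO, against 1.37% and 3.33% of all tested genes. Of the members, 14 were higher in both KO samples than in both WT samples and 19 were lower. The background shares were 15.0% and 19.4% of all tested genes, so these counts lay near them. Tas1r3 lies on chromosome 4, as do 4 members, Sdhb, Ndufs5, Uqcrh and Ndufb6, at 15.2 Mb or more from it, and all 4 overlapped between the genotypes.

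The median log2 fold change of the members was -0.04, beside -0.05 for all tested genes, with 37 members above 0 and 52 below. Their median absolute log2 fold change was 0.157, beside 0.255 for all tested genes. These medians are a description only. Replicates of a member differed by a median SD of 0.098 in WT and 0.202 in KO on the log2 scale. The SD expected from counting reads alone had medians of 0.139 and 0.227. The SD of 2 samples more often falls below the true SD than above it, so these values cannot be compared directly. Depth limits the precision of each member, with medians of 105 and 107 estimated reads per member in WT and 42 and 34.9 in KO. Without KO sample 1 the limma fit called 10 members, where it called 7.04% of all tested genes: Atp5c1, Atp5k, Atp5md, Ndufb1, Ndufb4, Ndufb8 and Uqcrc2 as higher, and Atp5a1, Ndufa11b and Ndufv1 as lower. Without KO sample 2 it called 2, beside 3.20% of all genes, and 0 members were in both sets. In those fits the 1 remaining KO sample was assumed to vary like the WT samples.

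**Figure D3:**
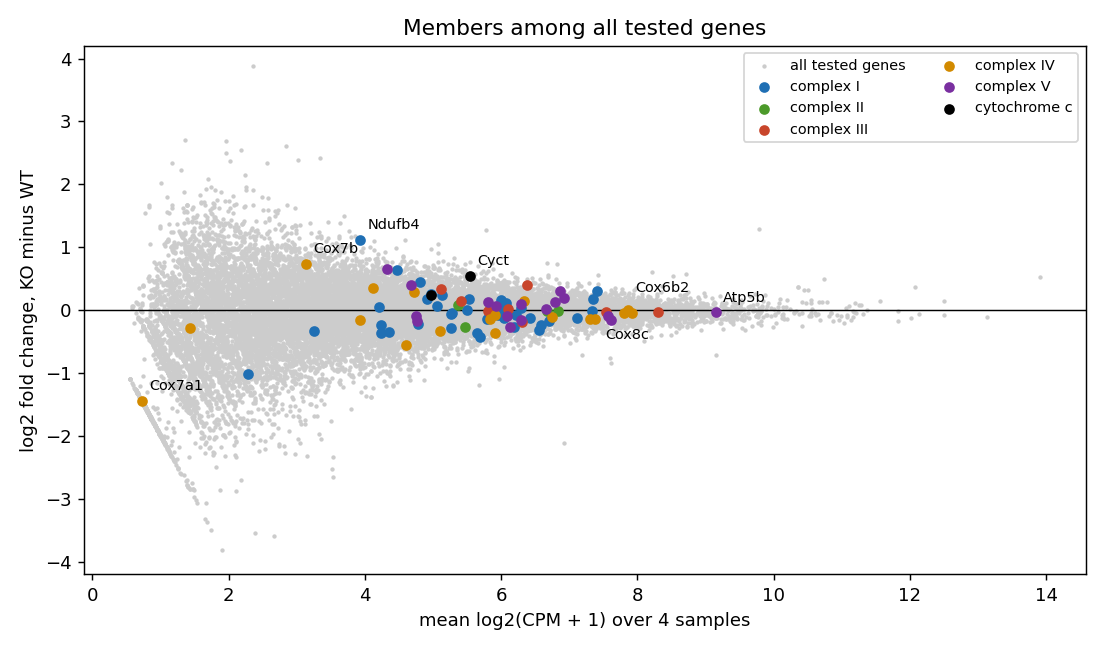
Log2 fold change (KO minus WT) against mean log2(CPM + 1) for all 17744 tested genes in grey and the 89 members in colour by complex. The widest values are those of members at low levels, such as Ndufb4 (1.11) and Cox7a1, which is listed at 0 in both KO samples.

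Complex I, which takes electrons from NADH, summed to 2430 and 2309 in WT against 2182 and 2518 CPM in KO, with KO on both sides of WT. Of its 40 members 17 were above 0 and 23 below, with a median log2 fold change of -0.06. Of its 7 nuclear core subunits, among them those that hold the flavin and the iron-sulphur clusters, 3 were above 0 and 4 below, with 0 past the test. Ndufv2, which carries an iron-sulphur cluster, was at 159 and 147 in WT against 175 and 171 CPM in KO, a log2 fold change of 0.18 (SE 0.14). Ndufv1, which binds NADH, was at 104 and 105 in WT against 97.3 and 71.9 CPM in KO, a log2 fold change of -0.32 (SE 0.19). Both KO values lay above WT for Ndufv2 and below WT for Ndufv1.

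Ndufb4, an accessory subunit of the membrane arm, was the single member with an unadjusted p under 0.05. It was at 13.9 and 6.26 in WT against 17.9 and 25.5 CPM in KO, a log2 fold change of 1.11 (SE 0.43; limma adjusted p = 0.942), so it did not pass the adjusted test. Its copy on chromosome 15, Ndufb4c, stood the other way, at 59.4 and 59.0 in WT against 36.8 and 51.4 CPM in KO (log2 fold change -0.43, SE 0.22). Near-identical copies can share reads, and the estimated reads of Ndufb4 were not whole numbers. Summed, a step chosen after their values were seen, the pair was at 73.2 and 65.3 in WT against 54.8 and 76.9 CPM in KO, which overlap. The levels of Ndufb4 and Ndufb4c taken singly are therefore uncertain, as are those of Ndufs5 with Ndufs5-ps and of Ndufa11 with Ndufa11b. Ndufs5-ps and Ndufa11b are annotated as transcribed pseudogenes, though counted here with complex I. Ndufa11b was at 3.70, 9.25, 10.7 and 0 CPM in WT 1, WT 2, KO 1 and KO 2.

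The other complex I members that the rule for naming picked were accessory subunits. Ndufc2 was at 22.1 and 12.7 in WT against 26.7 and 26.4 CPM in KO (log2 fold change 0.63, SE 0.33). Ndufb8 was at 149 and 155 in WT against 165 and 216 CPM in KO (0.31, SE 0.17), both with KO above WT. Ndufa7 (135, 153, 107 and 162 CPM in WT 1, WT 2, KO 1 and KO 2) overlapped. Ndufa13, also at a high level with 182, 142, 154 and 166 CPM, overlaps the annotated locus of the testis kinase gene Tssk6, and reads from these genes could not be told apart where no strand use is stated. The same limit holds for 9 further members that overlap another symbol, among them Atp5a1, Atp5md, Ndufa1, Ndufb11, Ndufa4l2, Ndufb4c and Uqcrc2. None of these passed the adjusted test in limma, where each adjusted p was 0.942 or above.

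Complex II, which oxidises succinate and is also an enzyme of the citric acid cycle, summed to 305.1 and 301.1 in WT against 278.3 and 315.9 CPM in KO. The flavoprotein gene Sdha was at 114.0 and 113.8 in WT against 119.3 and 107.0 CPM in KO (log2 fold change -0.01, SE 0.15, 95% interval -0.36 to 0.34). The iron-sulphur subunit gene Sdhb was at 109.3, 95.1, 86.8 and 117.1 CPM, and the membrane anchor genes Sdhc and Sdhd at 44.2, 51.3, 38.7 and 40.0 CPM and at 37.6, 40.9, 33.4 and 51.8 CPM. Only Sdhc, of the 4, had both KO values below both WT values.

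Complex III, which hands electrons to cytochrome c, summed to 885.9 and 823.7 in WT against 791.9 and 968.9 CPM in KO, with 4 members above 0 and 4 below. Its core protein genes were Uqcrc1, at 333 and 305 CPM in WT and 322 and 304 CPM in KO, and Uqcrc2, at 81.5 and 62.5 CPM in WT and 84.1 and 105.9 CPM in KO. Uqcrc1 overlapped with a log2 fold change of -0.03 (SE 0.13), whereas both KO values of Uqcrc2 lay above WT with 0.40 (SE 0.20; limma adjusted p = 0.942). The Rieske iron-sulphur protein gene Uqcrfs1 was at 91.3, 76.7, 64.1 and 83.6 CPM, and Uqcrq and Uqcr10, small subunits, differed between the KO samples (138 and 244 CPM for Uqcrq, 50.8 and 92.0 CPM for Uqcr10). Uqcrb, which helps bind ubiquinone, was at 34.9 and 25.4 in WT against 38.7 and 36.8 CPM in KO, higher in both.

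Most members of complex IV, cytochrome oxidase, were below 0. Of its 18 members, 4 were above 0 and 14 below, where all tested genes divided into 7919 above and 9825 below, with a median log2 fold change of -0.12, and 0 passed the test. Its sum was 1595 and 1502 CPM in WT and 1415 and 1529 CPM in KO, which overlap. Both KO values lay below both WT values in 9 members, where 19.4% of all tested genes did so, among them Cox4i1 (251, 243, 234 and 242 CPM), Cox6a1 (162, 170, 142 and 159 CPM) and Cox7a2, the ubiquitous form of subunit 7a (169, 176, 160 and 154 CPM). They lay above in 3, where 15.0% of all tested genes did so, which were the somatic forms Cox6b1, Cox7b and Cox8a. Cox4i1 crossed 0 to 0.12 when only the highest transcript of each gene was used.

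Cox7a2l was at 73.9 and 61.3 in WT against 54.2 and 50.2 CPM in KO (log2 fold change -0.36, SE 0.19, 95% interval -0.80 to 0.08). Cox7c, a small subunit, was at 26.4 and 30.4 in WT against 14.0 and 25.6 CPM in KO (-0.55, SE 0.33), with KO sample 1 the lowest. Ndufa4 was at 15.1, 14.9, 13.4 and 13.4 CPM, and its hypoxia-responsive relative Ndufa4l2 was at 40.7, 34.3, 20.04 and 43.4 CPM. The members Cox7c and Ndufa4l2 were the 2 called without KO sample 2, at limma adjusted p = 0.0419 and 0.0360. With all samples their adjusted p was 0.942.

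Complex V summed to 1945 and 1870 in WT against 1897 and 1942 CPM in KO, a log2 difference of 0.01, with overlap. Atp5b, the most abundant member in CPM, was at 581 and 571 in WT against 586 and 537 CPM in KO (log2 fold change -0.04, SE 0.12, 95% interval -0.32 to 0.24). The alpha subunit gene Atp5a1 was at 216, 196, 227 and 151 CPM and the gamma subunit gene Atp5c1, the rotating shaft, at 115, 92.9, 106 and 156 CPM, both overlapping, with KO sample 2 as an extreme. The membrane ring subunit is encoded by 3 genes for the same mature protein, of which Atp5g1 (72.1, 65.8, 73.5 and 56.9 CPM) and Atp5g3 (51.2, 53.6, 53.4 and 61.9 CPM) overlapped. Atp5g2 (26.8, 29.3, 28.1 and 21.7 CPM) was listed at 2 loci and its value is uncertain. Atp5md, a small membrane subunit, was at 16.9 and 13.2 in WT against 17.1 and 33.4 CPM in KO (0.65, SE 0.37), and Atp5mpl was at 78.4, 73.6, 56.1 and 70.2 CPM (-0.27, SE 0.19), each without overlap.

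**Figure D4:**
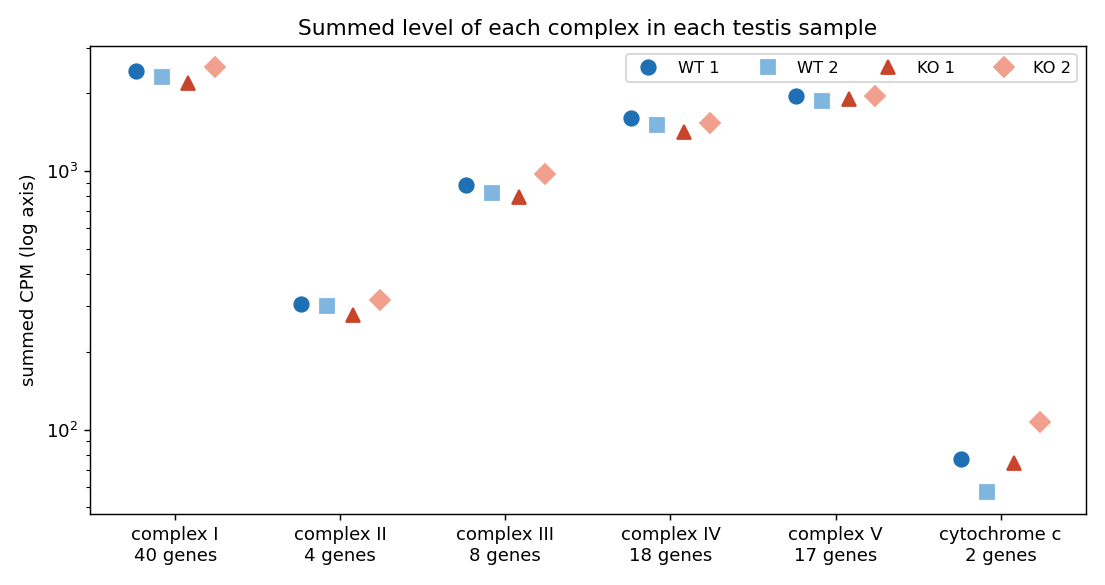
Summed CPM of each complex in each of the 4 samples, on a log axis. In all 6 groups the KO samples overlap the WT samples, and the log2 differences run from -0.07 (complex IV) to 0.04 (complex III) for the complexes, with 0.43 for the 2 cytochromes c.

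The 6 sums overlapped between the genotypes, and the exact two-sided permutation test gave p = 0.667 for complex IV and cytochrome c and p = 1 for the others, with adjusted values of 1 over the 6 tests. Complex I made up 32.9% to 34.1% of the members' summed CPM in the 4 samples, complex II 4.19% to 4.39%, complex III 11.9% to 13.1%, complex IV 20.7% to 22.0% and complex V 26.3% to 28.6%. The order of the members within a library was also much alike in all libraries: over the 89 members, Pearson's r of log2 levels lay between 0.912 and 0.973 for the 6 pairs of samples, a description across genes that share libraries and lengths.

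The genes that build and feed the system gave 0 calls as well. Of 45 tested assembly factors, which insert subunits and cofactors, 25 were above 0 and 20 below. Lyrm7, which helps insert the Rieske protein, was at 37.2 and 29.6 in WT against 60.1 and 46.4 CPM in KO (log2 fold change 0.66, SE 0.23; limma adjusted p = 0.942). Tmem70, an assembly factor of ATP synthase, was at 12.8 in both WT samples and at 19.98 and 25.1 CPM in KO (0.76, SE 0.30), and Ecsit, an assembly factor of complex I, at 29.5 and 34.7 in WT against 22.7 and 17.6 CPM in KO (-0.65, SE 0.27). Cyc1, the cytochrome c1 subunit of complex III, whose symbol fell outside the rule, was at 54.6, 37.4, 40.1 and 41.8 CPM.

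Of 17 genes of pyruvate oxidation and the citric acid cycle, 11 were above 0 and 6 below. Suclg1, the alpha subunit of succinyl-CoA ligase, was at 163 and 152 in WT against 124 and 107 CPM in KO, a log2 fold change of -0.45 (SE 0.15; limma adjusted p = 0.942). Dld and Fh1 went the other way. Dld was at 48.9 and 45.4 in WT against 63.6 and 56.9 CPM in KO (0.35, SE 0.19). Fh1 was at 30.2 and 26.6 in WT against 32.1 and 38.5 CPM in KO (0.30, SE 0.24). Of 11 regulators of mitochondrial biogenesis 3 were above 0 and 8 below, with the coactivator gene Ppargc1b at 7.18 and 10.9 in WT against 4.02 and 4.01 CPM in KO, about 2 to 3 reads in each KO library. Of 8 membrane carriers and channels 5 were above 0 and 3 below. Vdac1 (24.6, 15.1, 10.7 and 13.4 CPM in WT 1, WT 2, KO 1 and KO 2) and Slc25a4 (39.7, 31.5, 29.4 and 28.6 CPM) were lower in both KO samples. Vdac3 (222.8, 195.7, 230.6 and 254.2 CPM) was higher in both. The germ cell ADP/ATP carrier gene Slc25a31 was at 47.1, 25.5, 42.1 and 38.5 CPM and overlapped between the genotypes.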

How the data were processed

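RNA of 4 testis samples was measured, grouped by the titles and genotypes in the labels. The Ion Total RNA-Seq Kit v2 was applied to total RNA, per the labels' protocols. The genome build mm39 and the tools STAR and Partek are named in the submitters' processing notes, while versions, settings and strand use are not given in the sources. The values deposited by the authors are CPM per RefSeq transcript, each column summing to 1000000. They were summed per gene symbol. The commonest low values gave the CPM of 1 read (0.582, 0.553, 1.34 and 1.67) and so each depth. Of genes with at least 0.5 reads, 23.0% to 48.1% came out whole within 0.02 reads, so whole counts were not recovered and read numbers are estimates. Intervals and the floor of 3 reads cover counting error only. Levels per kilobase divide each transcript by its deposited length.

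Genes reaching 1 CPM in 2 or more of the 4 samples were tested on log2(CPM + 1), a scale that understates changes of low genes, with limma 3.58.1 (R 4.3.3), a mean trend, genotype as the term and two-sided Benjamini-Hochberg adjusted p under 0.05. Sums and ratios were tested with the exact permutation test (Python 3.11.15, scipy 1.17.1). In simulated data with these depths, 28.1%, 72.8% and 84.5% of genes changed 2-, 4- and 8-fold were called over 10 draws of 17619 genes, with 3 false calls in 174189. Beyond counting error, every simulated gene had the spread of genes at 500 CPM or more (SD 0.112 on the log2 scale). The lowest genes were left unchanged. These shares may therefore be too high for members at lower levels. The rule for named members took all isoform family genes and complex II. In each other complex it took the 4 with the greatest CPM and the 4 with the greatest CPM per kilobase. It also took the 4 with the smallest p there, and every member with an unadjusted p under 0.05. Of each other list it took the 3 with the smallest p. Values of some of these, such as Atp5d, Atp5j, Polrmt, Tfb2m and Hccs, are not printed here. Ndufv1, Ndufs5, Ndufs5-ps, Ndufa11, Ndufa11b, Ndufa1, Ndufb1, Ndufb6, Ndufb11, Atp5k, Pdha1, Pdha2, Slc25a5 and Slc25a31 fall outside that rule and were chosen after their values were seen. The members and lists were chosen with earlier results of these data known. Cox6a2 and Cox8b were not analysed here. Promoters come from build GRCm38.p6, whose coordinates differ from mm39. Alternatives changed the pseudocount, filter, scaling, variance model, transcript sum, weights, replicate block and samples.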

Additional observations from a re-analysis of the deposited data

How the results depend on the processing

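Over all settings that kept the 4 samples, 0 members were called. The count of genes called, 1 with all samples, was 0 with a pseudocount of 0.1, without a mean trend and with the highest transcript alone, and 2 with precision weights. With the replicate block it was 23 (6 higher and 17 lower). Same-numbered samples did not deviate together (r = -0.0273 over 7366 genes at 20 CPM or more). The labels name no factor that same-numbered samples share, and a shared factor acting on a part of the genes was not tested. Leaving out 1 sample gave 0 to 1249 genes called, with 1249 without KO sample 1 and 568 without KO sample 2, and 0 to 10 members called. The complex II sum moved to -0.165 with the highest transcript alone. Signs turned in members that were not called with all samples: with the highest transcript alone, Atp5g1 (0.317), Cox4i1 (0.122), Ndufa13 (0.0178) and Cox6b2 (0.0109); with trimmed mean of M values and quantile scaling, Cox6b2 (0.00737 and 0.00399); for Cox4i2, with a pseudocount of 5 (0.0189) and quantile scaling (0.027); and for Uqcr10, with precision weights (-0.018). Leaving out each sample in turn, log2 fold changes spanned 0 for Atp5a1 (-0.451 to 0.137), Atp5b (-0.101 to 0.0257), Atp5e (-0.177 to 0.214), Atp5g1 (-0.273 to 0.0914), Atp5g2 (-0.351 to 0.00261), Cox4i2 (-1.57 to 1.02), Cox6b2 (-0.0425 to 0.0365), Cox6c (-0.0738 to 0.348), Cox8c (-0.21 to 0.11), Cycs (-0.25 to 0.727), Ndufa13 (-0.188 to 0.164), Ndufa4l2 (-0.868 to 0.209), Ndufa7 (-0.421 to 0.176), Ndufc1 (-0.291 to 0.0357), Sdha (-0.0891 to 0.0662), Sdhb (-0.229 to 0.198), Sdhd (-0.227 to 0.393), Uqcr10 (-0.403 to 0.443), Uqcr11 (-0.0711 to 0.35), Uqcrc1 (-0.0906 to 0.0391), Uqcrh (-0.0838 to 0.0585) and Uqcrq (-0.446 to 0.377). The cause was not tested. The 638 other values of named members kept their sign and side of the threshold, and 8 passed the threshold with 1 KO sample left out. At KO depth, 3 reads are worth 4.01 and 5.02 CPM, which limits statements on the lowest members.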
